A study of Mus musculus with 10 samples.

Results

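The genes described here are 10 inhibitors and feedback regulators of NF-kB, taken by symbol from a table of 54532 genes measured by RNA sequencing of whole mouse lung. They are the inhibitor proteins Nfkbia, Nfkbib and Nfkbie, the nuclear relatives Nfkbiz and Bcl3, the ubiquitin editor Tnfaip3 with its binding partners Tnip1, Tnip2 and Tnip3, and the RNase Zc3h12a. Each symbol matched 1 row of the table, and 10 of 10 passed the filter on low counts. The lungs came from wild-type mice in 3 groups. LPS+TSLP held 4 libraries from lungs that received recombinant TSLP, an epithelial cytokine, ahead of LPS, the bacterial lipopolysaccharide sensed by TLR4. LPS held 3 libraries from lungs given LPS without TSLP, and Vehicle held 3 libraries from lungs given neither. Doses, times, route, age, sex and strain are not given in the sources used here, and no group received TSLP alone.

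NF-kB is a family of paired transcription factors that rest in the cytoplasm, bound by inhibitor proteins of the IkB family. A signal from a receptor such as TLR4 activates the IKK kinase complex, which marks the inhibitors for destruction and lets NF-kB enter the nucleus. Several of the genes that NF-kB then switches on encode its own brakes, so that their RNA levels are widely used as a readout of the pathway. In the lung, epithelial cells, macrophages, endothelium and recruited neutrophils all run this circuit after LPS.

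Levels are counts per 1000000 counts of a library (CPM), scaled by TMM. Total counts per library were 16175172 to 18374461, and 17139 genes were tested. LPS+TSLP replicate 1 stood apart: on the second principal component it scored −101, and the other 9 libraries scored −39.1 to 34.3. Mitochondrial genes took 13.1% of its counts, against 2% to 6.5% in the other LPS+TSLP libraries, 1.2% to 2.58% in LPS and 1.11% to 1.27% in Vehicle. LPS replicate 1 had 3388 counts of Xist, the RNA of the inactive X chromosome, where no other library passed 8. Markers of alveolar type II cells, airway epithelium, endothelium, fibroblasts and macrophages were present in every library, with no marker at 0. Their summed levels were not alike, however. In LPS+TSLP replicate 1 the alveolar type II sum was 4315 CPM, against 16702 to 25190.4 CPM in the other LPS+TSLP libraries. The airway sum of that library was 23106 CPM, against 11214 to 14951 CPM in the others of its group. LPS replicate 1 had a higher airway sum still, at 27079 CPM, against 12339 and 9248 CPM in LPS replicates 2 and 3. Its fibroblast sum was 1444 CPM, against 2706 and 2534 CPM in the same replicates. Nothing in the labels says whether libraries of a group came from separate animals, so the p-values measure the spread between these samples. In RNA from whole tissue, fewer cells of a type and less RNA per cell cannot be told apart.

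Promoter sequence was on record in RefSeq (build GRCm38.p6) for 9 of the 10 genes, Nfkbiz being the exception. Windows from 250 bases before to 50 bases after each annotated start were searched on both strands for the general kappa-B consensus GGGRNNYYCC. This is the sequence class bound by NF-kB, with R for A or G, Y for C or T and N for any base. The windows were also searched for the AP-1 motif TGANTCA, which overlapped none of the kappa-B matches in these genes. The kappa-B consensus stood in 6 of the 9 genes, against 9.55% of 27025 genes with a promoter entry. The stretches around these matches are shown because they are the candidate contact points of NF-kB with its own inhibitors. Capitals mark the match, read on the strand of the gene.
Nfkbia: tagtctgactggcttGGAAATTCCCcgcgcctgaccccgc
Nfkbie: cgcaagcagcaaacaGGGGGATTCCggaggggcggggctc
Bcl3: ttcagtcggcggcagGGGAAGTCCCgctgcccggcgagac
Tnfaip3: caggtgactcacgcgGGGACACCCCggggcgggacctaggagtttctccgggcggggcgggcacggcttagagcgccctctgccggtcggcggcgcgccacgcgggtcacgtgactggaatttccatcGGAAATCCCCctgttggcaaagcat
Tnip1: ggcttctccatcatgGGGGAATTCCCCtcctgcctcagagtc
Tnip3: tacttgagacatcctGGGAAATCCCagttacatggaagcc

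The Nfkbia stretch is chr12:55492652-55492691 on the minus strand, and its match lies 29 to 20 bases before the start. The Nfkbie stretch (chr17:45555579-45555618, plus strand) has its match 106 to 97 bases before the start, with an AP-1 motif 156 to 150 bases before it. In Bcl3 (chr7:19822729-19822768, minus strand) the match lies just inside the transcribed part, from base 3 to base 12. Tnfaip3 (chr10:19015398-19015550, minus strand) has a match 125 to 116 bases and another 12 to 3 bases before the start, and an AP-1 motif 136 to 130 bases before it. Tnip1 (chr11:54962972-54963013, minus strand) has 3 overlapping matches between 58 and 47 bases before the start. The Tnip3 match (chr6:65590329-65590368, plus strand) lies 54 to 45 bases before the RefSeq start. That start is inside the gene span given below for Tnip3, which begins at base 65525313. The sequence at the beginning of that span was not searched. The Tnfaip3 stretch also lies inside its gene span, which on the minus strand begins at base 19015657. A second RefSeq start of Tnfaip3 (window chr10:19011914-19012213) had no kappa-B match. The Nfkbib window (chr7:28766595-28766894) likewise lies inside its gene span, which on the minus strand begins at base 28767512. AP-1 motifs stood in 8.97% of all genes with an entry. No kappa-B match was found in the windows of Nfkbib, Tnip2 and Zc3h12a, which says only that these letters are not in these windows.

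LPS against Vehicle addresses what LPS did to these genes in the lung. The RNA of 7 of the 10 was higher after LPS, none was lower and 3 did not pass, at an adjusted p under 0.05 by edgeR's quasi-likelihood test over all genes. Tnip3, Tnfaip3 and Nfkbia had the largest fitted values of the 10. The background was 14.2% of 17139 genes called higher and 10.7% called lower. The median log2 fold change of the 10 genes was 1.12, against 0.01 over all genes tested. In 9 of the 10 every LPS library lay above every Vehicle library, which held for 24.7% of all genes. The number called rested on few libraries: it was 2 without Vehicle replicate 1, 3 without Vehicle replicate 2 and 4 without LPS replicate 3. The count over all genes, 4273 with every library, fell to 1661, 1836 and 3878 in the same 3 settings. Of the 10 genes, 7 were called when both LPS replicate 1 and LPS+TSLP replicate 1 were left out.

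**Figure D1:**
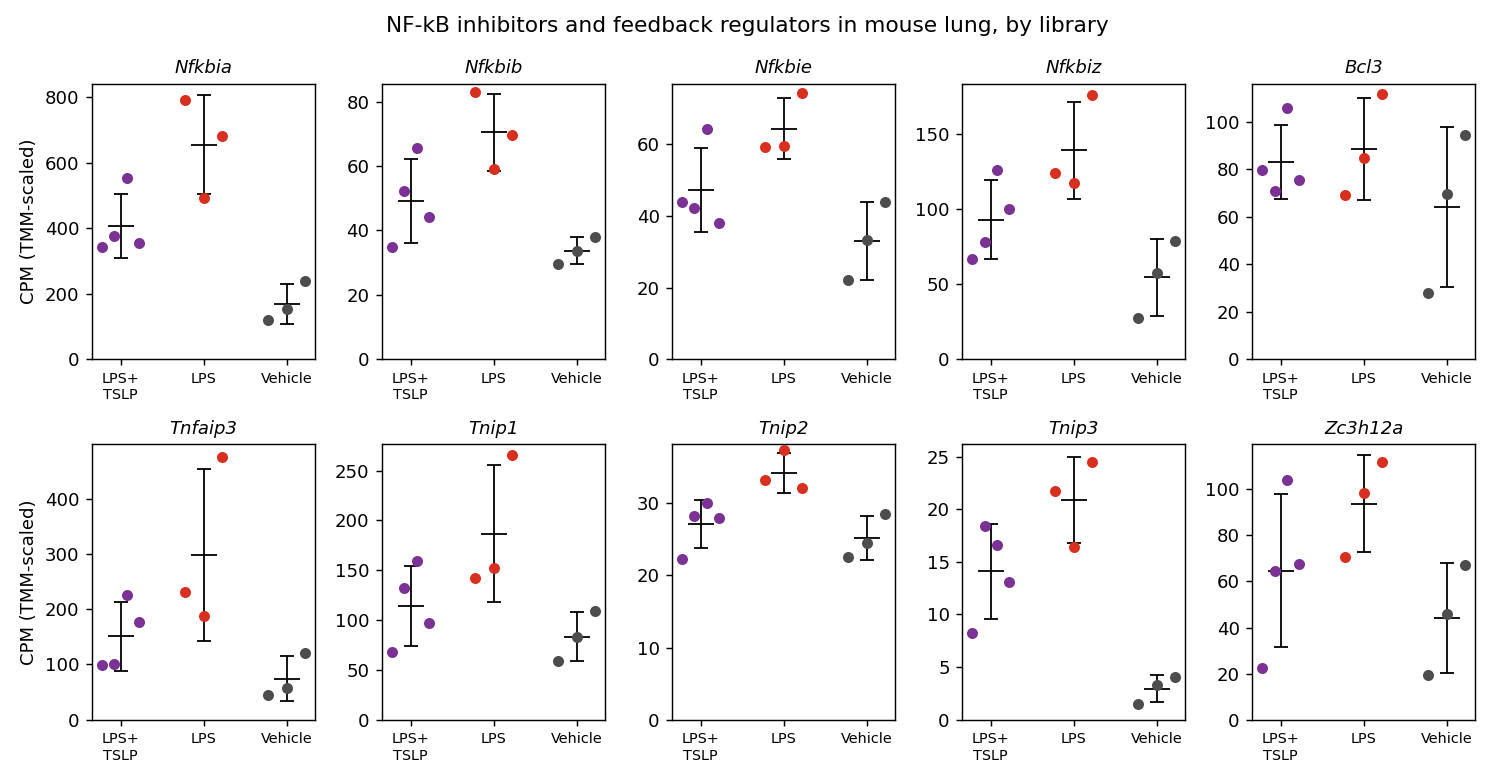
Level of each of the 10 genes in TMM-scaled CPM (linear axis from 0) by group, with 1 point per library in replicate order, and the mean and SD as bars. LPS libraries lie above Vehicle libraries without overlap in 9 genes, Bcl3 being the exception. LPS+TSLP means lie between the other means in all 10, as they do for 56.9% of all genes tested and 84.9% of the genes called higher in LPS against Vehicle.

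Among the cytoplasmic inhibitors, Nfkbia encodes IkB-alpha, the classical inhibitor that is destroyed and resynthesised within each round of NF-kB activity (ENSMUSG00000021025, GRCm38 chromosome 12, 55489410 to 55492647, minus strand). Nfkbia measured 342, 377, 552 and 353 CPM in LPS+TSLP replicates 1 to 4, 791, 491 and 682 CPM in LPS replicates 1 to 3, and 119, 152 and 237 CPM in Vehicle replicates 1 to 3. All LPS libraries stood far above all Vehicle libraries, and the LPS+TSLP libraries filled the gap between, with replicate 3 alone reaching into the LPS range. Nfkbia averaged 654 ± 152 CPM in LPS and 169 ± 60.8 CPM in Vehicle (SD, n = 3 each). This was a 3.87-fold higher level, a log2 fold change of 1.95 (SE 0.31, 95% interval 1.27 to 2.64, edgeR adjusted p = 0.00316). The call held in 23 of 23 alternative settings, with values from 1.76 to 2.28.

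Nfkbib encodes IkB-beta, which retains NF-kB like IkB-alpha but is described as slower to respond (ENSMUSG00000030595, chromosome 7, 28758251 to 28767512, minus strand). It measured 34.7, 52.3, 65.5 and 44.2 CPM in LPS+TSLP, 82.9, 58.9 and 69.5 CPM in LPS, and 29.4, 33.6 and 37.9 CPM in Vehicle. The LPS libraries lay clear above the Vehicle libraries, while LPS+TSLP overlapped both. Nfkbib was 2.09-fold higher, a log2 fold change of 1.07 (SE 0.24, edgeR adjusted p = 0.0115), and the adjusted p was 0.0555 without Vehicle replicate 1. The gene overlaps Ccer2 on the opposite strand by 314 exonic bases, and 12.6% of its 50-base stretches also occur there. The strand setting of the counting is not given in the sources used here, so reads of the shared part could belong to either gene.

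Nfkbie encodes IkB-epsilon, a further inhibitor that is made in response to NF-kB (ENSMUSG00000023947, chromosome 17, 45555703 to 45563169, plus strand). It measured 44.0, 42.2, 64.4 and 38.1 CPM in LPS+TSLP, 59.3, 59.6 and 74.4 CPM in LPS, and 22.2, 33.2 and 44.0 CPM in Vehicle. The 3 LPS libraries were close to each other and above every Vehicle library. Nfkbie was 1.94-fold higher, a log2 fold change of 0.96 (SE 0.27, edgeR adjusted p = 0.0266). This call was lost when any of Vehicle replicate 1 (adjusted p = 0.108), Vehicle replicate 2 (0.0871), LPS replicate 1 (0.0553) or LPS replicate 3 (0.0651) was left out.

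The atypical IkB proteins work in the nucleus, where they alter what DNA-bound NF-kB does. Nfkbiz encodes IkB-zeta, an induced co-activator of a subset of NF-kB target genes (ENSMUSG00000035356, chromosome 16, 55811375 to 55838899, minus strand). It measured 66.6, 77.9, 126 and 100.2 CPM in LPS+TSLP, 124, 117 and 176 CPM in LPS, and 27.6, 57.1 and 78.7 CPM in Vehicle. Every LPS library was above every Vehicle library, although the Vehicle libraries themselves spanned a 2.85-fold range. Nfkbiz was 2.55-fold higher after LPS, a log2 fold change of 1.35 (SE 0.36, edgeR adjusted p = 0.0211). The adjusted p was 0.0614 without Vehicle replicate 1, 0.0643 without Vehicle replicate 2 and 0.0521 without LPS replicate 3.

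Bcl3 encodes a nuclear IkB protein that binds p50 and p52 homodimers (ENSMUSG00000053175, chromosome 7, 19808462 to 19822770, minus strand). It measured 79.7, 71.1, 106 and 75.7 CPM in LPS+TSLP, 69.4, 85.0 and 112 CPM in LPS, and 27.9, 69.7 and 94.6 CPM in Vehicle. It was the only one of the 10 genes whose LPS and Vehicle libraries overlapped, with Vehicle replicate 1 low and Vehicle replicate 3 above LPS replicates 1 and 2. Its log2 fold change of 0.47 (SE 0.37, 95% interval −0.33 to 1.27) did not pass, with an edgeR adjusted p of 0.364. Leaving out 1 library moved it between 0.11, without Vehicle replicate 1, and 0.87, without Vehicle replicate 3, and no call was made. Bcl3 shares 161 exonic bases with the antisense gene Gm16175, and reads of that part could belong to either gene.

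Tnfaip3 encodes A20, which removes and adds ubiquitin on signalling proteins upstream of IKK and is among the strongest brakes of the pathway (ENSMUSG00000019850, chromosome 10, 19000910 to 19015657, minus strand). It measured 99.7, 101, 226 and 176 CPM in LPS+TSLP, 231, 187 and 476 CPM in LPS, and 45.5, 56.7 and 120.3 CPM in Vehicle. LPS replicate 3 was the highest library by far, and the other LPS libraries were still above all Vehicle libraries. Tnfaip3 averaged 298 ± 156 CPM in LPS and 74.2 ± 40.3 CPM in Vehicle (SD, n = 3 each). It was 4.02-fold higher, a log2 fold change of 2.01 (SE 0.48, 95% interval 0.96 to 3.06, edgeR adjusted p = 0.0136). The value was 1.75 with an adjusted p of 0.06 without Vehicle replicate 1, and 1.84 with an adjusted p of 0.0578 without Vehicle replicate 2.

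The Tnip genes encode the ABIN proteins, named for binding A20. Tnip1, encoding ABIN-1 (ENSMUSG00000020400, chromosome 11, 54910785 to 54962917, minus strand), measured 67.7, 132, 159 and 97.1 CPM in LPS+TSLP, 142, 152 and 266 CPM in LPS, and 58.9, 82.8 and 109 CPM in Vehicle. LPS replicate 3 again stood highest, and LPS and Vehicle libraries did not overlap. Tnip1 was 2.23-fold higher, a log2 fold change of 1.16 (SE 0.36, edgeR adjusted p = 0.0364). That call was lost without Vehicle replicate 1 (adjusted p = 0.133), Vehicle replicate 2 (0.102) or LPS replicate 3 (0.107), and with scaling by library size alone (0.0544).

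Tnip2, encoding ABIN-2, which also stabilises the kinase TPL2 (ENSMUSG00000059866, chromosome 5, 34496087 to 34513991, minus strand), was the steadiest of the 10. It measured 22.3, 28.3, 30.0 and 28.0 CPM in LPS+TSLP, 33.2, 37.4 and 32.1 CPM in LPS, and 22.6, 24.5 and 28.5 CPM in Vehicle. The LPS libraries lay above all others, by a small margin. Its log2 fold change of 0.44 (SE 0.18, 95% interval 0.05 to 0.84) did not pass, with an edgeR adjusted p of 0.0926. With a GC trend removed the value was 0.66 and passed (adjusted p = 0.0291), a setting that moved the median of all genes by 0.14.

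Tnip3, encoding ABIN-3, known in mouse as a low-abundance, LPS-inducible member of the family (ENSMUSG00000044162, chromosome 6, 65525313 to 65634040, plus strand), had the lowest level of the 10 and the largest fold in the fit without a GC correction. It measured 8.25, 18.4, 16.6 and 13.1 CPM in LPS+TSLP, 21.7, 16.4 and 24.5 CPM in LPS, and 1.52, 3.26 and 4.04 CPM in Vehicle. Every library of both LPS-treated groups was above every Vehicle library. Tnip3 averaged 20.9 ± 4.09 CPM in LPS and 2.94 ± 1.29 CPM in Vehicle (SD, n = 3 each). It was 7.08-fold higher, a log2 fold change of 2.82 (SE 0.40, 95% interval 1.95 to 3.70, edgeR adjusted p = 0.00219). Its exons have the lowest GC content of the 10 genes, at 40.5%, and with a GC trend removed the value was 1.75 (adjusted p = 0.00793), below Nfkbia at 2.17 and Tnfaip3 at 2.07 in the same setting. The call held in 23 of 23 alternative settings.

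Zc3h12a encodes Regnase-1, an RNase that cuts the mRNAs of inflammatory cytokines and of several NF-kB regulators (ENSMUSG00000042677, chromosome 4, 125118423 to 125127840, minus strand). It measured 22.6, 64.7, 104 and 67.7 CPM in LPS+TSLP, 70.7, 98.3 and 112 CPM in LPS, and 19.4, 45.7 and 67.3 CPM in Vehicle. All LPS libraries were above all Vehicle libraries, but LPS replicate 1 exceeded Vehicle replicate 3 only slightly, and both LPS+TSLP replicate 1 and Vehicle replicate 1 were low. Its log2 fold change of 1.09 (SE 0.51, 95% interval −0.03 to 2.20) did not pass, with an edgeR adjusted p of 0.135. Without LPS+TSLP replicate 1, the value was 1.10 and the adjusted p was 0.0479. That library is in neither group compared here, but it enters the shared filter, scaling and estimate of the spread.

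**Figure D2:**
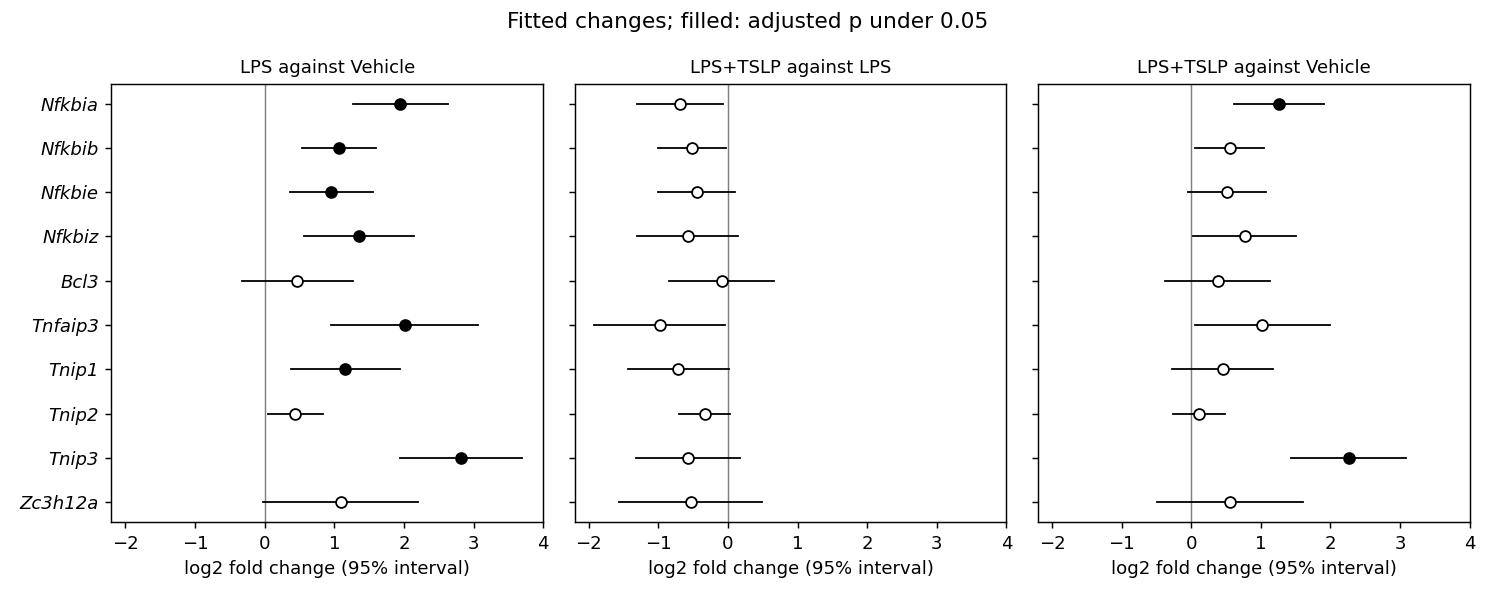
Log2 fold change (horizontal axis, points, with 95% intervals as lines) of the 10 genes in the 3 comparisons named above the panels, from 1 edgeR fit; filled points have an adjusted p under 0.05. Filled points number 7 in the first panel, 0 in the second and 2 in the third, where Nfkbia and Tnip3 are filled.

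Levels were compared between genes after division by the length of the annotated exons in kb. Nfkbia was the most abundant in all 3 groups, at 252 CPM per kb in LPS+TSLP, 406 in LPS and 105 in Vehicle, with no overlap between its libraries and those of the next gene. Tnip3 was the least abundant in all 3 groups, at 1.29 CPM per kb in LPS+TSLP, 1.91 in LPS and 0.269 in Vehicle, again with no overlap with its neighbour. Its exon length of 10.916 kb joins all annotated isoforms, so its per-kb level is a low estimate if the lung used a shorter one. Tnip2 stood next to last, at 10.1 CPM per kb in LPS+TSLP, 12.7 in LPS and 9.38 in Vehicle. The genes between them were closer: of the 9 neighbouring pairs in the order, 6 overlapped in LPS+TSLP, 6 in LPS and 7 in Vehicle. In Vehicle the order below Nfkbia was Bcl3, Tnip1, Nfkbib, Zc3h12a, Nfkbie, Nfkbiz and Tnfaip3, from 25.9 to 10.3 CPM per kb, and no neighbours among these were separated by their spread. In LPS, Tnip1 (52.8 CPM per kb) and Tnfaip3 (41.2 CPM per kb) stood next after Nfkbia, though neither was separated from the gene after it.

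The libraries of a group differed in a common order across these genes. Vehicle replicate 1 was the lowest Vehicle library in 10 of the 10 genes and Vehicle replicate 3 the highest in 10, whereas over all genes tested they were lowest in 36.6% and highest in 37.0%. LPS+TSLP replicate 3 was the highest of its group in 9 of the 10 and LPS+TSLP replicate 1 the lowest in 8, against 15.7% and 38.5% of all genes. LPS replicate 3 was the highest LPS library in 7, against 36.1% of all genes. The mean log2 CPM of the 10 genes was 5.62, 6.09, 6.57 and 6.08 in LPS+TSLP, 6.56, 6.47 and 6.94 in LPS, and 4.67, 5.34 and 5.81 in Vehicle. The Vehicle libraries thus spanned more than 1 log2 unit among themselves.

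**Figure D3:**
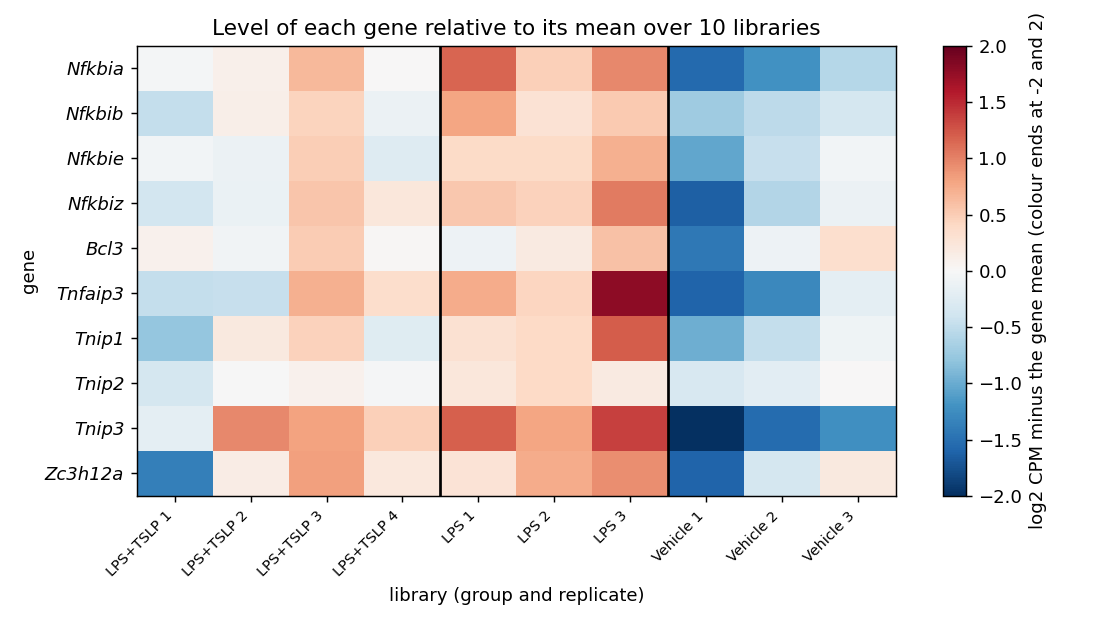
Heat map of log2 CPM of each gene (rows) minus that gene's mean over the 10 libraries (columns, grouped and numbered by replicate); red is above and blue below the mean, and colours end at −2 and 2. Vehicle replicate 1 is the bluest Vehicle column in all 10 rows, and LPS+TSLP replicate 3 is the reddest of its group in 9 rows.

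Markers of neutrophils, which carry NF-kB regulators themselves, were summed in each library. The summed level of 10 neutrophil markers was 145, 968, 1148 and 829 CPM in LPS+TSLP, 1840.2, 1677 and 2258 CPM in LPS, and 372, 597 and 1232 CPM in Vehicle. The sum followed much of the order just described, with Vehicle replicate 1 and LPS+TSLP replicate 1 lowest in their groups and Vehicle replicate 3, LPS replicate 3 and LPS+TSLP replicate 3 highest. In LPS against Vehicle, 2 of the 10 neutrophil markers were called higher, a count near the 14.2% over all genes. These were Ly6g by log2 1.67 (edgeR adjusted p = 0.0224) and Trem1 by 1.78 (adjusted p = 0.0411). S100a9, the marker with the highest mean in LPS (663 CPM), did not pass (adjusted p = 0.063). The median of the 10 markers was 1.43 in LPS against Vehicle. It was 0.09 in LPS+TSLP against Vehicle, where none was called. Of 10 monocyte and macrophage markers, 3 were called higher, with a median of 0.91 in LPS against Vehicle. Their summed level was 2670.5 to 7181 CPM in LPS+TSLP, 5279 to 7155 CPM in LPS and 4973 to 7738 CPM in Vehicle. Lyz2 was the largest part of that sum, at a mean of 4530 CPM in LPS+TSLP, 4837 CPM in LPS and 5664 CPM in Vehicle. Endothelial and fibroblast markers were called lower in 4 of 8 each, against 10.7% of all genes. No marker of these lists was at 0 in any library. The part of these cell types in the changes of the 10 genes was not tested.

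LPS+TSLP against LPS addresses what TSLP given ahead of LPS altered. None of the 10 genes was called, and none of the 17139 genes tested was either (0% called). The fitted value was below 0 for 10 of the 10 genes, as it was for 47.8% of all genes, and Bcl3 turned to 0.10 when LPS replicate 3 was left out. The median of the 10 was −0.55, against 0.02 over all genes. At an unadjusted p under 0.05 by edgeR, 1388 of all genes differed (8.10%). Of the 10, 3 were lower, against 3.69% of all genes, and none was higher, against 4.41%. DESeq2's Wald test called 33 of all genes and none of the 10, and limma-voom called none of the 10.

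The lower values at an unadjusted p under 0.05 were those of Tnfaip3, Nfkbia and Nfkbib. Tnfaip3 averaged 151 ± 61.6 CPM in LPS+TSLP (SD, n = 4) and 298 ± 156 CPM in LPS (SD, n = 3), a log2 fold change of −0.98 (SE 0.43, 95% interval −1.92 to −0.04, edgeR adjusted p = 0.609). Its value was −0.49 without LPS replicate 3. Nfkbia averaged 406 ± 98.2 CPM in LPS+TSLP and 654 ± 152 CPM in LPS, a log2 fold change of −0.69 (SE 0.28, 95% interval −1.30 to −0.07, edgeR adjusted p = 0.599). Nfkbib averaged 49.2 ± 13.0 CPM in LPS+TSLP and 70.4 ± 12.0 CPM in LPS, a log2 fold change of −0.52 (SE 0.22, 95% interval −1.01 to −0.03, edgeR adjusted p = 0.602). Without LPS replicate 1 and LPS+TSLP replicate 1, the libraries that stand apart, Nfkbia measured −0.46 and Nfkbib −0.25, while Tnfaip3 measured −0.99. LPS+TSLP and LPS libraries overlapped in all 3 of these genes.

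Tnip2 was the only gene of the 10 whose LPS+TSLP libraries all lay below all LPS libraries, which held for 3.54% of all genes. Its log2 fold change was −0.33, with a 95% interval of −0.70 to 0.03. The intervals of the others also reached well below 0: −1.43 to 0.01 for Tnip1, −1.31 to 0.14 for Nfkbiz, −1.0 to 0.10 for Nfkbie, −1.32 to 0.18 for Tnip3, −1.56 to 0.49 for Zc3h12a and −0.84 to 0.66 for Bcl3. With 4 and 3 libraries, neither a lower level nor an equal one was established for any of these genes. The neutrophil markers, of which none was called here, had a median of −1.42 in this comparison. The 13 mitochondrial genes had a median of 1.70, also without a call, and 13 of 13 were called higher in LPS+TSLP against Vehicle. With haemoglobin, mitochondrial and immunoglobulin genes removed before scaling, Tnfaip3 measured −0.99 and Nfkbia −0.69 in LPS+TSLP against LPS. The part of neutrophils in these values was not tested.

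LPS+TSLP against Vehicle addresses what still differed from Vehicle lung when LPS followed TSLP. Of the 10 genes, 2 were called higher and none lower, against a background of 8.82% of all genes called higher and 5.35% called lower. Tnip3 averaged 14.1 ± 4.46 CPM in LPS+TSLP (SD, n = 4) and 2.94 ± 1.29 CPM in Vehicle (SD, n = 3), a log2 fold change of 2.26 (SE 0.38, 95% interval 1.43 to 3.09, edgeR adjusted p = 0.00541). With the GC trend removed this value was 1.24 (adjusted p = 0.0316). Nfkbia averaged 406 ± 98.2 CPM in LPS+TSLP and 169 ± 60.8 CPM in Vehicle, a log2 fold change of 1.26 (SE 0.29, 95% interval 0.62 to 1.90, edgeR adjusted p = 0.0193). Its adjusted p was 0.0557 without LPS+TSLP replicate 3, 0.103 without Vehicle replicate 1 and 0.0963 without Vehicle replicate 2. In both genes the groups did not overlap, which held in this direction for 15.7% of all genes.

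The other 8 did not pass. Tnfaip3 had a log2 fold change of 1.02 (SE 0.44, 95% interval 0.05 to 2.0, edgeR adjusted p = 0.134), and without Vehicle replicate 3 it was 1.56 and passed (adjusted p = 0.0475). Nfkbiz stood at 0.77, Nfkbib at 0.55, Zc3h12a at 0.55, Nfkbie at 0.51, Tnip1 at 0.45, Bcl3 at 0.38 and Tnip2 at 0.11, with edgeR adjusted p-values from 0.121 to 0.683. Without LPS+TSLP replicate 1, and also without both it and LPS replicate 1, 3 genes were called, Nfkbib being added with a value of 0.68 (adjusted p = 0.0475) in the first case. This comparison shares its LPS+TSLP libraries with the one against LPS and its Vehicle libraries with LPS against Vehicle, so the 3 sets of values are not independent.

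The rest of the pathway was described from lists of its parts. The list values are from the fit without a GC correction, and values with the GC trend removed are not given for these genes. In LPS against Vehicle, 14.2% of all genes were called higher and 10.7% lower, the shares to set beside each list's count. Among the 5 NF-kB subunits, 2 were called higher in LPS against Vehicle: Rel, the c-Rel subunit of immune cells, by log2 1.02 (edgeR adjusted p = 0.0223), and Nfkb2, the p100 precursor that is itself an IkB-like inhibitor, by 0.92 (adjusted p = 0.0326). Relb measured 0.88 (adjusted p = 0.0602) and Nfkb1 0.10, and 3 of the 5 did not pass. The list's median was 0.88. None of the 5 was called in LPS+TSLP against LPS, where the median was −0.25.

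Of 19 receptors' adaptors, kinases and IKK components, 5 were called higher after LPS, none was lower and 14 did not pass, with a median of 0.24. The 4 with the smallest adjusted p were the IKK-related kinases Tbk1 (log2 1.14, edgeR adjusted p = 0.00682) and Ikbke (2.85, adjusted p = 0.00825), the adaptor kinase Irak2 (1.05, adjusted p = 0.0135) and Chuk, encoding IKK-alpha (0.79, adjusted p = 0.0161). Of 17 other brakes, 5 were called higher, none lower and 12 did not pass, with a median of 0.19. The share called higher over all genes was 14.2%. The brakes were led by Tax1bp1, an adaptor of A20 (2.01, adjusted p = 0.00212), Tank, a scaffold of TBK1 and IKK-epsilon (2.20, adjusted p = 0.00295), Commd1, which promotes loss of RelA (1.46, adjusted p = 0.011), and Irak3, a kinase-dead inhibitor of IRAK signalling (1.96, adjusted p = 0.0117). Neither list had a call in LPS+TSLP against LPS, and the medians were −0.06 for the upstream genes and −0.12 for the brakes.

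Of 9 relatives and partners of Regnase-1, 2 were called higher in LPS against Vehicle, 1 was lower and 6 did not pass, counts near the shares of 14.2% higher and 10.7% lower over all genes. Rc3h2, which encodes the RNA-binding protein Roquin-2, was higher after LPS (log2 1.52, edgeR adjusted p = 0.00433), as was Malt1, a protease that cleaves Regnase-1 in lymphocytes (2.20, adjusted p = 0.00953). Zc3h12b, a Regnase family member, was lower (−1.44, adjusted p = 0.0231), at 0.843 ± 0.0564 CPM in LPS and 2.30 ± 0.055 CPM in Vehicle (SD, n = 3 each). Rc3h1, encoding Roquin-1, measured 0.84 and did not pass (adjusted p = 0.056). Of 10 mRNAs described as Regnase-1 targets, 9 were tested and 3 were called higher. These were Nfkbiz itself, Rel and Nfkbid, a nuclear IkB protein (1.44, adjusted p = 0.0294), while Il6 measured 2.61 and did not pass (adjusted p = 0.0628). The medians were 0.83 for the partners and 1.02 for the targets in LPS against Vehicle, and −0.29 for the partners and −0.43 for the targets in LPS+TSLP against LPS, without a call in either list. Nfkbiz, Rel and Nfkbid each stand in another group described here as well. Il6 and Il12b also stand in the list of genes dependent on IkB-zeta, so these lists are not separate sets.

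Of 6 genes described as dependent on IkB-zeta, 3 were called higher after LPS and none lower, with a median of 2.51. They were the colony-stimulating factors Csf2 (log2 2.56, edgeR adjusted p = 0.00684) and Csf3 (3.84, adjusted p = 0.0276) and the cytokine subunit Ebi3 (2.34, adjusted p = 0.00775), while Lcn2, an iron-siderophore binding protein, measured 2.46 and did not pass (adjusted p = 0.0547). Of 25 other induced NF-kB targets, 18 were called higher and none lower, with a median of 2.11. They were led by Bcl2a1b, a survival factor that shares sequence with its family copies (3.13, adjusted p = 0.00196), Gadd45b, a stress-response gene (1.79, adjusted p = 0.00354), the chemokine Ccl4 (4.48, adjusted p = 0.00422) and Sod2, the mitochondrial superoxide dismutase (1.92, adjusted p = 0.00527). Both lists had no call in LPS+TSLP against LPS, with a median of −1.13 for the IkB-zeta-dependent genes and −1.04 for the other targets. In LPS+TSLP against Vehicle, 1 of the 6 and 7 of the 25 were called higher, beside 0 of the 5 subunits, 3 of the 19 upstream genes, 2 of the 17 other brakes, 2 of the 9 Regnase partners and 0 of the 9 Regnase targets. The share over all genes in that comparison was 8.82%, so several of these counts lie near it.

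**Figure D4:**
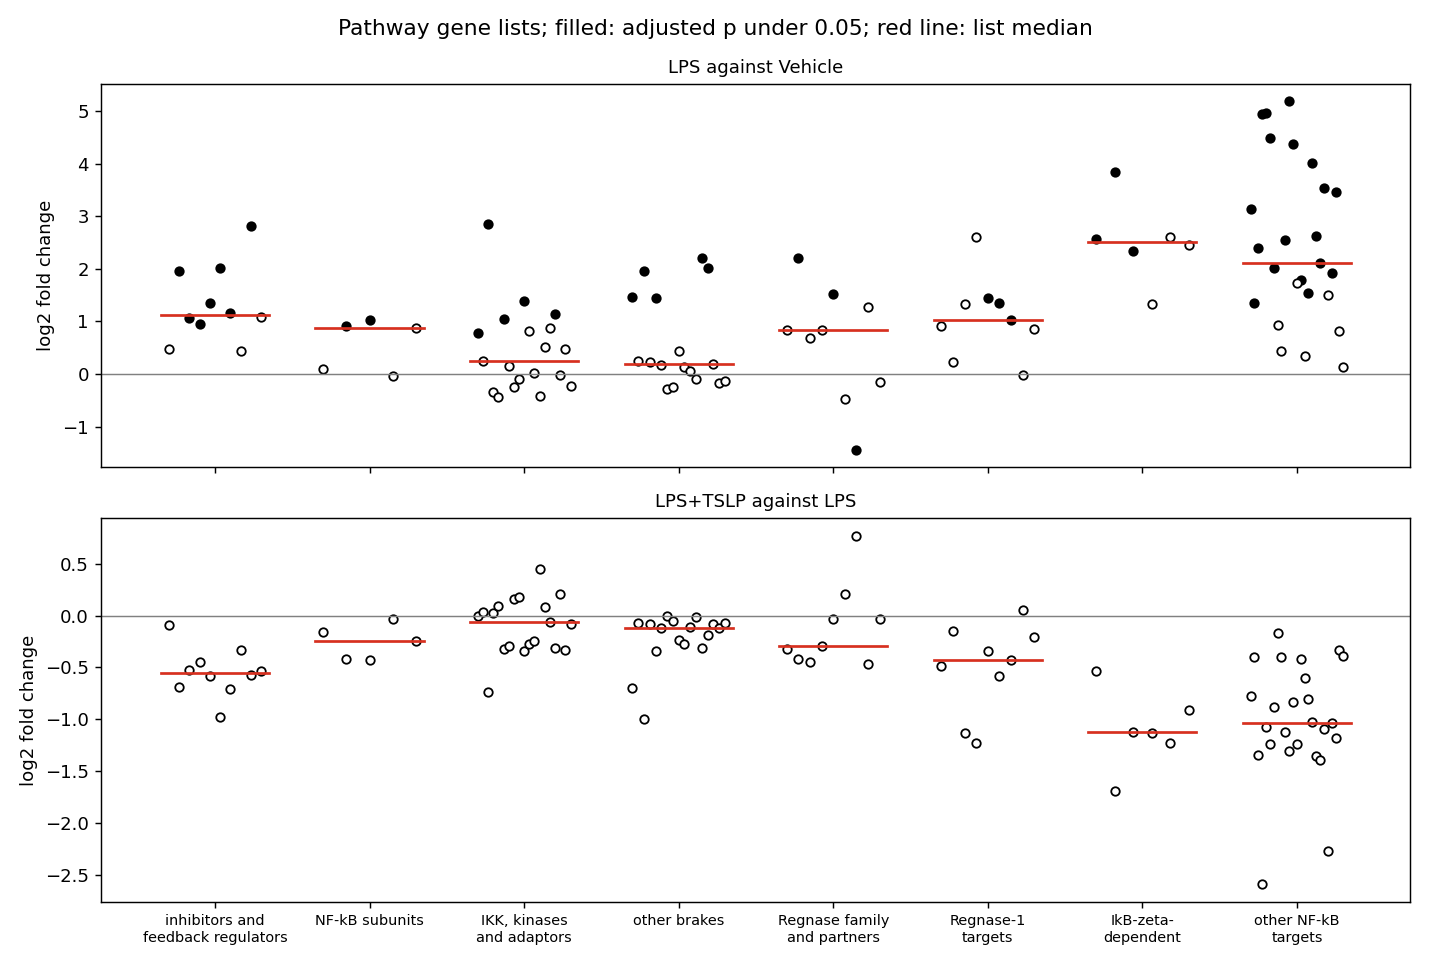
Log2 fold change (vertical axis) of each tested gene in the 10 inhibitors and feedback regulators and in 7 other pathway lists, in LPS against Vehicle (top) and LPS+TSLP against LPS (bottom); filled points have an edgeR adjusted p under 0.05 and red lines are list medians. The medians in LPS against Vehicle lie between 0.19 for other brakes and 2.51 for IkB-zeta-dependent genes, and no point is filled in LPS+TSLP against LPS.

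The genes whose pattern over the 10 libraries was most like that of 4 of the regulators were ranked among 12129 others with a mean of at least 5 CPM. The measure was the mean absolute difference in log2 CPM after each gene was centred on its own mean, so that smaller is more alike. Genes were not scaled to an equal spread. A gene with larger or smaller changes thus ranks as less alike even if its order of libraries is the same. Nearest to Nfkbia were Clec4a2 (0.129), Med7 (0.153), Cstb (0.156), Pmaip1 (0.157) and Gadd45b (0.159), where the median over all genes was 0.765. Nearest to Nfkbiz were Birc3 (0.117), Mxd1 (0.139), Plek (0.172), Pim1 (0.174) and Ifih1 (0.178), with a median of 0.634 over all genes. For Tnfaip3 they were Upp1 (0.240), Nfkbiz (0.248), Snx10 (0.256), Slc11a1 (0.256) and Lpcat2 (0.258), with a median of 0.833. For Zc3h12a they were H2-Q10 (0.189), whose reads may be shared with near-identical class I genes, Map3k8 (0.254), Sh2b2 (0.262), Tgm1 (0.272) and Il18rap (0.273), with a median of 0.732. These likenesses are a description of 10 libraries that share their groups and depth.

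Among the regulators themselves, Nfkbiz was near to most others. It ranked 2 of 12129 in likeness to Tnfaip3, 6 to Zc3h12a and 93 to Nfkbia. Tnip1 ranked 17 to Zc3h12a and Nfkbia ranked 23 to Tnfaip3. Tnip3 ranked 849 to Nfkbia and 744 to Tnfaip3, but 5007 to Nfkbiz and 5559 to Zc3h12a. Tnip2, whose level varied least, ranked 2454 to Nfkbia and 617 to Zc3h12a.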

How the data were processed

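Total RNA of mouse lung was extracted with Trizol and sequenced from Illumina libraries, per the labels. The authors deposited whole-number read counts per gene for 10 libraries. CASAVA, HISAT2 and HTSeq 0.6.0 and the builds GRCm38 and mm10 are named in the submitters' processing notes. The annotation release and strand setting are not given in the sources used here. Counts were filtered with filterByExpr (17139 genes kept), scaled by TMM and tested with edgeR 4.0.16 in R 4.3.3 by its quasi-likelihood test (robust). The 10 libraries and 3 groups entered a single fit, which leaves 7 residual degrees of freedom. Calls are two-sided, at an adjusted p (Benjamini-Hochberg, all genes) under 0.05. Fold changes and intervals are from that fit, CPM values are scaled by TMM, and log2 CPM used a prior count of 2. Gene positions, exon lengths and GC content came from GENCODE annotation on GRCm38, which held 99.93% of the table's identifiers. No library repeated another of its group. Libraries with equal replicate numbers had correlations of −0.34 to 0.4 after group means were removed, so the numbers were not taken as pairs.

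The 10 genes, the gene lists and the tests were chosen with earlier results of these data known. All 10 were described. From other lists the text names up to 4 genes with the smallest adjusted p in LPS against Vehicle, plus up to 2 called in the opposite direction. Likeness was computed for Nfkbia, Nfkbiz, Tnfaip3 and Zc3h12a. Alternatives were DESeq2 1.42.0 and other size factors, DESeq2's Wald test, limma-voom (limma 3.58.1), other filters and thresholds, removal of a GC trend, a replicate block, fits of the groups compared alone, removal of 447 haemoglobin, mitochondrial and immunoglobulin genes, and leaving out libraries.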

Additional observations from a re-analysis of the deposited data

Results flagged for a closer look

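In LPS+TSLP, the level of Nfkbia was high in 1 library of 4. Replicate 3 had 552 CPM, where the other LPS+TSLP libraries had 342 to 377 CPM. Its gap to the nearest other library was 0.833 of the range of the group, above Dixon's 95% critical value for 4 samples. Chance alone passes that value in about 1 in 20 groups, and each of the 10 genes was examined. Replicate 3 was also the highest LPS+TSLP library in 9 of the 10 genes.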

How the results depend on the processing

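In LPS against Vehicle, 7 of the 10 genes were called higher. The count was 2 at an adjusted p under 0.01 and 2 to 8 when 1 library was left out. Over all genes, 4273 were called, 1246 at an adjusted p under 0.01, and 1661 to 5424 with 1 library left out. In LPS+TSLP against LPS, where none of all genes was called, DESeq2's Wald test called 33, and leaving out 1 library gave 0 to 1. In LPS+TSLP against Vehicle, 2 of the 10 were called, 1 at an adjusted p under 0.01, and 1 to 3 with 1 library left out. Over all genes, 2428 were called there, against 3678 by DESeq2's Wald test, 1384 with the GC trend removed, 527 at an adjusted p under 0.01, 4193 at an adjusted p under 0.1, 3842 without LPS replicate 1 and LPS+TSLP replicate 1, and 516 to 3493 with 1 library left out. The cause was not tested. Bcl3 in LPS+TSLP against LPS was the single reversal: it ran from −0.23 to 0.10 with 1 library left out, the positive value being the one without LPS replicate 3.

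Libraries of equal number share no stated source, so the replicate block is not a pairing by design. The block used only replicate numbers present in every group, so LPS+TSLP replicate 4 was not in those fits. Without that library and with no block, 7 of the 10 genes were called in LPS against Vehicle. With the replicate block, 8 of the 10 genes were called in LPS against Vehicle, Zc3h12a being added (log2 1.29, adjusted p = 0.0152), and 9 once the GC trend was removed too. In LPS+TSLP against Vehicle the block gave 5 calls, and 5 once the GC trend was removed too, adding Nfkbie, Nfkbiz and Tnfaip3. In LPS+TSLP against LPS the block gave 0. With the GC trend removed alone, 8 were called in LPS against Vehicle. Tnip3, at 1.52 to 4.04 CPM in Vehicle, has the least depth of the 10.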
